A study of Mus musculus with 6 samples.

Results

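The genes described here are 32 members of the protein-folding machinery of the endoplasmic reticulum (ER) and of the unfolded protein response, the signalling pathway that adjusts that machinery. They were chosen by name as sensors, chaperones, disulfide isomerases, degradation factors and translocon subunits. All 32 names were found among the 55420 rows of the deposited table, each with a single record. RNA came from C2C12, a mouse muscle precursor line whose cells fuse into multinucleate myotubes after serum withdrawal. The cells were grown in 10% fetal bovine serum and collected on day 4 in medium with 2% horse serum. The groups were 3 libraries labelled FHL3-KO, a knockout of the LIM-domain protein FHL3, and 3 WT libraries. The labels name neither a clone nor how the knockout was made, and clone and genotype cannot be told apart here, and they name no separate culture for each library, so that p-values cover only the spread between these libraries, which may be technical.

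The targeted gene did not bear out the label: Fhl3 stood at 57.2, 53.5 and 58.9 FPKM in the FHL3-KO-labelled libraries, against 27.8, 30.03 and 33.7 FPKM in WT (log2 change 0.87, SE 0.0921, limma adjusted p = 0.000547). The table does not show which exons were covered, so the groups are named by their labels throughout, and every direction below rests on those labels. The cells carried the myotube programme in both groups. The 10 markers of differentiated myotubes summed to between 12070.4 and 12645 FPKM in the FHL3-KO-labelled libraries and to between 4513 and 4902 FPKM in WT, and 9 of them rose. The 6 markers of undifferentiated myoblasts summed to between 85.4 and 100.03 FPKM in the FHL3-KO-labelled libraries and to between 60.6 and 74.9 FPKM in WT, with Pax3 at 0. Of the 4 tested, Hes1, Id1 and Id3 rose and Myf5 fell. The log2 changes of Hes1, Id1 and Id3 were 1.22, 0.96 and 1.10 (limma adjusted p of 0.000302, 0.00284 and 0.001). Hes1 made up most of the sum in the FHL3-KO-labelled libraries. Without Hes1, left out after its values were seen, the sum was 32.8 to 37.2 FPKM in the FHL3-KO-labelled libraries and 37.9 to 47.2 FPKM in WT. Myf5 averaged 8.64 ± 0.84 FPKM in the FHL3-KO-labelled libraries and 29.5 ± 5.67 FPKM in WT (SD, n = 3 each; log2 change -1.65, SE 0.141, limma adjusted p = 0.000239). Of 7 cycling markers 2 rose and 3 fell, with sums of 118 to 138 FPKM in the FHL3-KO-labelled libraries and of 120.2 to 143 FPKM in WT. The 7 fibroblast markers summed to between 148 and 166 FPKM in the FHL3-KO-labelled libraries and to between 435 and 498 FPKM in WT, with 1 rise and 3 falls, and Thy1 at 0. The 7 liver markers were listed at 0 in the FHL3-KO-labelled libraries, and in WT their sum ranged from 0.0208 to 95.96 FPKM, nearly all of it in WT replicate 1, while the 5 macrophage markers stayed at or below 0.864 FPKM in sum in the FHL3-KO-labelled libraries and 2.41 FPKM in WT. The part of these differences in the results was not tested, and in a bulk sample fewer cells of a type and less RNA per cell cannot be told apart.

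The ER folds secreted and membrane proteins with the help of chaperones, and muscle cells carry an expanded form of it, the sarcoplasmic reticulum, which also stores calcium. When unfolded proteins accumulate, 3 membrane sensors respond: IRE1 (Ern1) splices the Xbp1 messenger RNA, ATF6 is cut into a transcription factor, and PERK (Eif2ak3) slows translation and favours the translation of Atf4. XBP1 and ATF6 then raise chaperone, folding and degradation genes. The table gives 1 value per gene in FPKM, the number of fragments per kilobase of transcript and per size of the library, so spliced and unspliced Xbp1 or cut and uncut ATF6 cannot be read from it.

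Of the 31 members that passed the filter on low values (averaging 1 FPKM or more in either group), 8 fell, 2 rose and 21 were not called in the FHL3-KO-labelled libraries relative to WT. A call means an adjusted p under 0.05 in limma, a moderated linear model on log2(FPKM + 1), with Benjamini-Hochberg adjustment over all 12528 genes tested. Of all tested genes 40.8% were called, 21.2% as falls and 19.7% as rises, and 32.3% of the tested members, 25.8% as falls and 6.45% as rises. The share of members that fell was near the background and the share that rose below it. With each library scaled to the same sum, 36.3% of all calls were rises, against 48.2% without that scaling. The median log2 change was -0.18 over the tested members and -0.005 over all tested genes, and 21 of the 31 members had a change below 0, against 50.4% of all tested genes. For 15 of the 31 members no library of one group lay within the range of the other, with the FHL3-KO-labelled libraries lower for 11 and higher for 4, against 53.8% of all tested genes, 26.9% lower and 26.9% higher. In the exact two-sided permutation test each of these 15 reached p = 0.1, the smallest that 3 against 3 allows. Leaving out a library changed the counts: 3 members fell without FHL3-KO replicate 1 and 3 without WT replicate 2, 5 without WT replicate 1, 6 without FHL3-KO replicate 3, 9 without WT replicate 3 and 11 without FHL3-KO replicate 2. The calls over all tested genes moved as well. In the same order they numbered 3574, 3272, 3984, 4083, 4615 and 5273, against 5112 with all libraries. In each of these fits 1 member rose, except without FHL3-KO replicate 2, where 2 rose. The calls stayed in all 14 alternative settings for 4 members, the falls of Hsp90b1, Dnajc3 and Canx and the rise of Herpud1. Derl3, a degradation factor of secretory cells, was not tested, with 0.068, 0 and 0.0553 FPKM in the FHL3-KO-labelled libraries and 0.104, 0.27 and 0.0212 FPKM in WT.

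**Figure D1:**
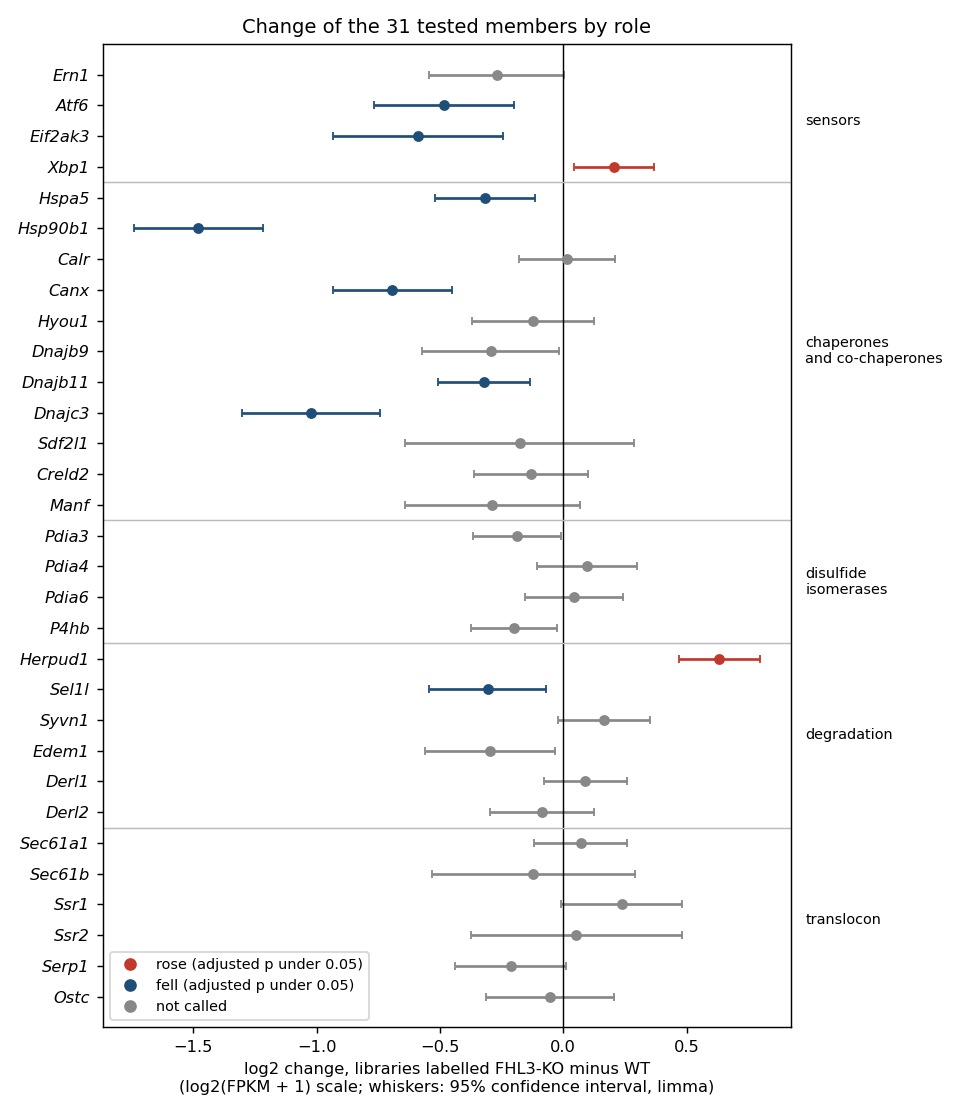
Log2 change of the 31 tested members (x axis, libraries labelled FHL3-KO minus WT, log2(FPKM + 1) scale), grouped by role, with 95% confidence intervals from limma (n = 3 libraries each). Hsp90b1 lies furthest to the left at -1.48 and Herpud1 furthest to the right at 0.63, while no disulfide isomerase or translocon gene is called. Of all tested genes 40.8% were called.

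Many genes of the unfolded protein response are known to share a control sequence, the ER stress element (ERSE), through which ATF6 or XBP1 act together with the CCAAT-binding factor NF-Y. RefSeq promoter sequences (GRCm38.p6, from 250 bases before to 50 bases after the annotated start) were at hand for 25 of the 32 members. ERSE was searched as CCAAT and CCACG with 9 bases of any kind between them, ERSE-II as ATTGG and CCACG with 1 base of any kind between them, the core of the XBP1 site UPRE as TGACGTGG, and the C/EBP-ATF site CARE as TGATGNAA, each on both strands. ERSE was present for 9 of the 25 members and in 0.119% of all 32851 promoters of that length, and ERSE-II for 2 members and in 0.0365% of promoters. UPRE was in 0 members and in 0.676% of promoters, and CARE in 1 member, Herpud1, and in 3.97% of promoters. The sequences below show up to 250 bases before the start for the member with the largest fall and the one with the largest rise, ending where the RefSeq or the GENCODE gene begins, and the stretch around the element for other members that fell and for 4 with an ERSE that were not called. Each reads 5′ to 3′ along the gene, and capitals mark ERSE or ERSE-II and, in Herpud1, also CARE, the capitals nearer the left end.
Hsp90b1, chr10:86705510-86705694, minus strand: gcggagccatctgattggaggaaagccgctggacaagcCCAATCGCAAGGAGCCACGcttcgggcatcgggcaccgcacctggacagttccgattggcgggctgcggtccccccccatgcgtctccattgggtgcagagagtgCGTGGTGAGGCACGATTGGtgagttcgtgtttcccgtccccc
Herpud1, chr8:94386179-94386428, plus strand: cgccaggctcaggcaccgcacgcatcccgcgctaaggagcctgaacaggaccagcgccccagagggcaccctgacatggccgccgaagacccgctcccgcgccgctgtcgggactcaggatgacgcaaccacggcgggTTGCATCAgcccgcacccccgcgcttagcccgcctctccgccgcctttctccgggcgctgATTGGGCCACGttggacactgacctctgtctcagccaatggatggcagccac
Dnajc3 ERSE, chr14:118937812-118937860, plus strand: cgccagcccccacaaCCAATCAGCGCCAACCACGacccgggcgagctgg
Canx ERSE, chr11:50325785-50325833, minus strand: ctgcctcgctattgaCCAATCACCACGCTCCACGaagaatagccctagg
Hspa5 ERSE, chr2:34772020-34772048, plus strand: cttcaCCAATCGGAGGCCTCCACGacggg
Dnajb11 ERSE-II, chr16:22857843-22857871, plus strand: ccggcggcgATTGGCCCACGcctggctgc
Calr ERSE, chr8:84847060-84847108, minus strand: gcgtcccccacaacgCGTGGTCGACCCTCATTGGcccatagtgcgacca
Pdia6 ERSE, chr12:17266476-17266524, plus strand: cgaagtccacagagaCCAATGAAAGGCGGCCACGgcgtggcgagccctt
Syvn1 ERSE, chr19:6046517-6046565, plus strand: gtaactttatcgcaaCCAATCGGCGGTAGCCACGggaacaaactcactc
Creld2 ERSE, chr15:88819505-88819553, plus strand: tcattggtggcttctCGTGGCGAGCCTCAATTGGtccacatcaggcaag

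Hsp90b1 had 2 copies of ERSE, 1 on each strand, and Herpud1 had ERSE-II near its start and CARE further upstream. Dnajc3, Canx, Hspa5, Pdia6 and Syvn1 had ERSE on the strand of the gene, and Calr, Creld2 and Derl3 on the opposite strand. Of the 9 members with ERSE, 4 fell (Hsp90b1, Dnajc3, Canx and Hspa5), 4 were not called (Calr, Pdia6, Creld2 and Syvn1) and Derl3 was not tested. Of the 2 with ERSE-II, Dnajb11 fell and Herpud1 rose. Of the 14 members with a promoter sequence and neither element, 2 fell, 1 rose and 11 were not called. Of all tested genes 21.2% fell and 19.7% rose. Whether an element went with the calls was not tested on these few genes. A match in these letters is a description of the promoter and does not show that a factor was bound.

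Transcripts of 2 of the 3 sensors fell in the FHL3-KO-labelled libraries, and that of the transcription factor downstream of the other was slightly higher. Eif2ak3, which encodes PERK, stood at 3.87, 5.15 and 4.87 FPKM in the FHL3-KO-labelled libraries, against 8.93, 7.22 and 6.32 FPKM in WT (log2 change -0.59, SE 0.148, limma adjusted p = 0.0166). Atf6 stood at 13.8, 18.1 and 15.004 FPKM in the FHL3-KO-labelled libraries, against 24.5, 22.1 and 20.01 FPKM in WT (log2 change -0.48, SE 0.122, limma adjusted p = 0.0172). For both genes every library labelled FHL3-KO lay below every WT library. Ern1, the IRE1 gene, was at 4.14, 4.91 and 4.16 FPKM in the FHL3-KO-labelled libraries, against 6.07, 5.69 and 4.83 FPKM in WT, and the groups overlapped (log2 change -0.27, 95% confidence interval -0.55 to 0.00, adjusted p = 0.103). Xbp1, whose spliced messenger RNA encodes the transcription factor of the IRE1 branch, was at 92.2, 85.9 and 89.9 FPKM in the FHL3-KO-labelled libraries, against 78.996, 76.2 and 76.6 FPKM in WT, a rise of 0.21 on the log2 scale (SE 0.0696, limma adjusted p = 0.048). The Xbp1 call stood at the edge of the threshold and ended in 10 of the 14 alternatives, among them scaling each library to the same sum (log2 change 0.10, adjusted p = 0.376) and leaving out FHL3-KO replicate 1 or 3 or any WT replicate (adjusted p from 0.0646 to 0.161). Leaving out a library also ended the Atf6 call for FHL3-KO replicates 1 and 3 and WT replicates 1 and 2 (adjusted p from 0.0508 to 0.0622) and the Eif2ak3 call for FHL3-KO replicate 1 and WT replicate 2 (0.0586 and 0.0527). With no filter on low values, where 27681 genes were tested, both calls ended as well (0.0558 for Atf6 and 0.0581 for Eif2ak3). After removal of the trend with length and GC content the Atf6 change was -0.26, still called (adjusted p = 0.0222), and the Xbp1 change was 0.06 and not called.

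The chaperones and co-chaperones held the largest falls, with 5 of 11 falling and 0 rising in limma (6 lower and 0 higher at an unadjusted p under 0.05, against 25.8% lower and 24.5% higher of all tested genes), among them the abundant ER chaperones Hsp90b1 and Hspa5. Hsp90b1 encodes GRP94, the HSP90 of the ER lumen, which folds integrins, Toll-like receptors and insulin-like growth factors. It stood at 108, 109 and 95.6 FPKM in the FHL3-KO-labelled libraries, against 334, 288 and 259.9 FPKM in WT (ENSMUSG00000020048, chromosome 10, 86690209 to 86705509, GRCm38). The means were 104 ± 7.65 FPKM in the FHL3-KO-labelled libraries and 294 ± 37.3 FPKM in WT (SD, n = 3 each), so the level in the FHL3-KO-labelled libraries was 35.5% of that in WT (log2 change -1.48, SE 0.112, limma adjusted p = 0.000155). Dnajc3 encodes p58IPK, a co-chaperone of BiP that also inhibits PERK. Its level was 9.07, 10.1 and 8.71 FPKM in the FHL3-KO-labelled libraries, against 23.4, 18.9 and 17.7 FPKM in WT, with means of 9.29 ± 0.728 FPKM in the FHL3-KO-labelled libraries and 20.03 ± 3.02 FPKM in WT (SD, n = 3 each; log2 change -1.02, SE 0.12, limma adjusted p = 0.00085). No library of one group reached the range of the other for either gene. With the trend with length and GC content removed, the changes were -1.20 for Hsp90b1 and -0.75 for Dnajc3. Both were still called (limma adjusted p = 5.97e-05 and 0.000357). A transcribed pseudogene on the opposite strand, 1810014B01Rik, overlaps exons of Hsp90b1, and it averaged 1.56 FPKM in the FHL3-KO-labelled libraries and 2.21 FPKM in WT.

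Canx encodes calnexin, the membrane-bound lectin that holds newly made glycoproteins until they fold. It was at 76.6, 88.3 and 74.2 FPKM in the FHL3-KO-labelled libraries, against 142, 129 and 117 FPKM in WT (log2 change -0.69, SE 0.103, limma adjusted p = 0.00223), and the groups did not overlap. With each library's trend with exon length and GC content removed, the change was -0.39, still called (adjusted p = 0.00209). Its soluble counterpart calreticulin (Calr) was at 202, 232 and 219.6 FPKM in the FHL3-KO-labelled libraries, against 209, 219 and 217 FPKM in WT, with overlapping groups (log2 change 0.02, 95% confidence interval -0.18 to 0.21, adjusted p = 0.898). Hspa5 encodes BiP, the HSP70 of the ER, which binds unfolded chains and holds the sensors inactive. It was at 201, 208 and 192 FPKM in the FHL3-KO-labelled libraries, against 273, 242 and 237 FPKM in WT (log2 change -0.32, SE 0.0872, limma adjusted p = 0.0233). Dnajb11 (ERdj3), a co-chaperone that hands clients to BiP, was at 48.6, 49.8 and 50.5 FPKM in the FHL3-KO-labelled libraries, against 57.8, 62.1 and 67.1 FPKM in WT (log2 change -0.32, SE 0.0798, limma adjusted p = 0.0161). In both genes the groups did not overlap, and the FHL3-KO-labelled mean was 80.03% of the WT mean for Hspa5 and 79.6% for Dnajb11. Under quantile normalization the Hspa5 change was -0.54. The Hspa5 call ended without FHL3-KO replicate 1 or 3 or WT replicate 1 or 2 (adjusted p from 0.0515 to 0.0732), and the Dnajb11 call without FHL3-KO replicate 1 or WT replicate 2 (0.0607 and 0.0627).

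The other 5 chaperone genes did not pass the test. Dnajb9 (ERdj4), an IRE1-branch target that returns BiP to IRE1, was at 11.8, 15.6 and 11.99 FPKM in the FHL3-KO-labelled libraries, against 16.5, 16.8 and 15.2 FPKM in WT (log2 change -0.29, adjusted p = 0.0845), and without FHL3-KO replicate 2, the library within the WT range, it passed (-0.42, adjusted p = 0.0117). After removal of the trend with length and GC content the Dnajb9 change was -0.0034 (adjusted p = 0.979). Manf, a secreted ER stress protein, was at 35.6, 28.3 and 43.2 FPKM in the FHL3-KO-labelled libraries, against 38.7, 45.5 and 45.8 FPKM in WT (log2 change -0.29, 95% confidence interval -0.64 to 0.07, adjusted p = 0.166). Its call likewise appeared without 1 library, FHL3-KO replicate 3 (adjusted p = 0.0456), and without FHL3-KO replicate 2 the change was -0.14. Manf shares exon sequence with Dcaf1 on the opposite strand, so its value is uncertain. Hyou1 (GRP170), a nucleotide exchange factor of BiP, the secreted ER protein Creld2 and the ERdj3 partner Sdf2l1 had log2 changes between -0.18 and -0.12 and adjusted p from 0.326 to 0.5. Creld2 passed after removal of the trend with length and GC content (-0.28, adjusted p = 0.027). Sdf2l1 spread widely within both groups, from 10.7 to 16.02 FPKM in the FHL3-KO-labelled libraries and from 11.5 to 18.8 FPKM in WT.

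**Figure D2:**
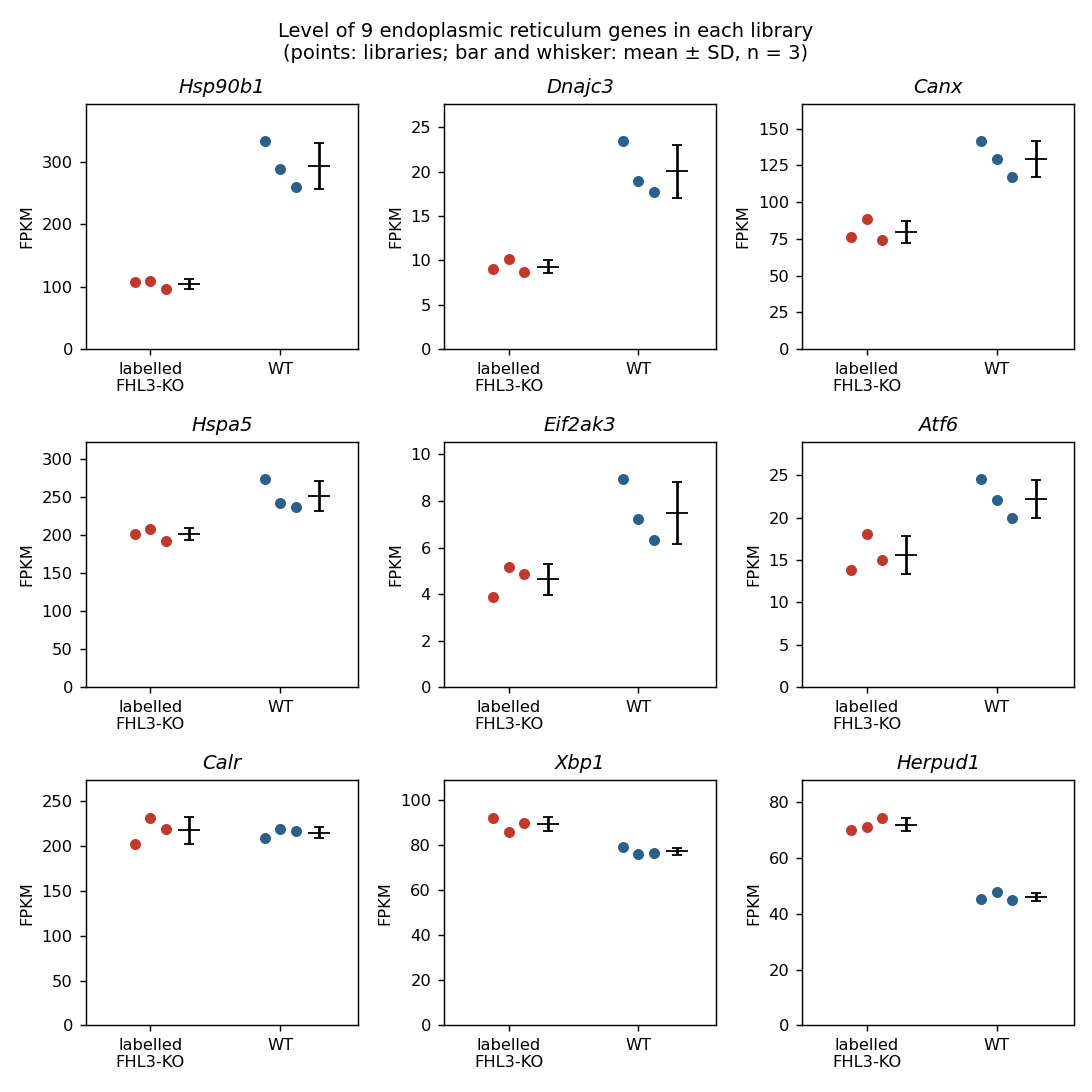
FPKM (y axis, from 0) of 9 members in each library, with libraries labelled FHL3-KO on the left and WT on the right of each panel. Points are libraries in replicate order, and the bar and whisker are the mean ± SD (n = 3). Hsp90b1 and Dnajc3 show the widest gaps, Calr overlaps, and Herpud1 lies higher in every library labelled FHL3-KO.

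Because members of 1 library share its scaling, ratios between them show where the composition of the ER chaperone pool differed. The ratios were chosen after their values were seen. The FPKM of Hsp90b1 over that of Hspa5 was 0.537, 0.527 and 0.497 in the FHL3-KO-labelled libraries, against 1.22, 1.19 and 1.10 in WT. GRP94 transcripts thus exceeded BiP transcripts per length in each WT library and stayed below them in each library labelled FHL3-KO. Dnajc3 over Hspa5 was 0.045, 0.0486 and 0.0453 in the FHL3-KO-labelled libraries, against 0.0859, 0.0781 and 0.0749 in WT. The membrane lectin over the soluble one, Canx over Calr, was 0.379, 0.381 and 0.338 in the FHL3-KO-labelled libraries, against 0.678, 0.589 and 0.539 in WT. None of these ratios overlapped between the groups, and each had an exact permutation p of 0.1, the smallest possible for 3 against 3. For ratios chosen on their values, neither the gap nor this p adds support. On the log2 scale the difference between Canx and Calr was -0.71, and -0.29 after the trend with length and GC content was removed, while that between Hsp90b1 and Hspa5 was -1.16 and -0.99. That between Dnajc3 and Hspa5 was -0.71 and -0.54, and -0.48 under quantile normalization. In summed FPKM the 11 chaperone genes reached 764 to 802 FPKM in the FHL3-KO-labelled libraries and 1057 to 1167 FPKM in WT. Hsp90b1 alone made up 4.87 to 5.77% of the members' summed FPKM in the FHL3-KO-labelled libraries and 11.8 to 14.6% in WT. The sum of all 32 members was 1914 ± 41 FPKM in the FHL3-KO-labelled libraries and 2252 ± 38 FPKM in WT (SD, n = 3 each), and without Hsp90b1 it was 1809.7 ± 49 FPKM in the FHL3-KO-labelled libraries and 1958 ± 9.1 FPKM in WT.

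**Figure D3:**
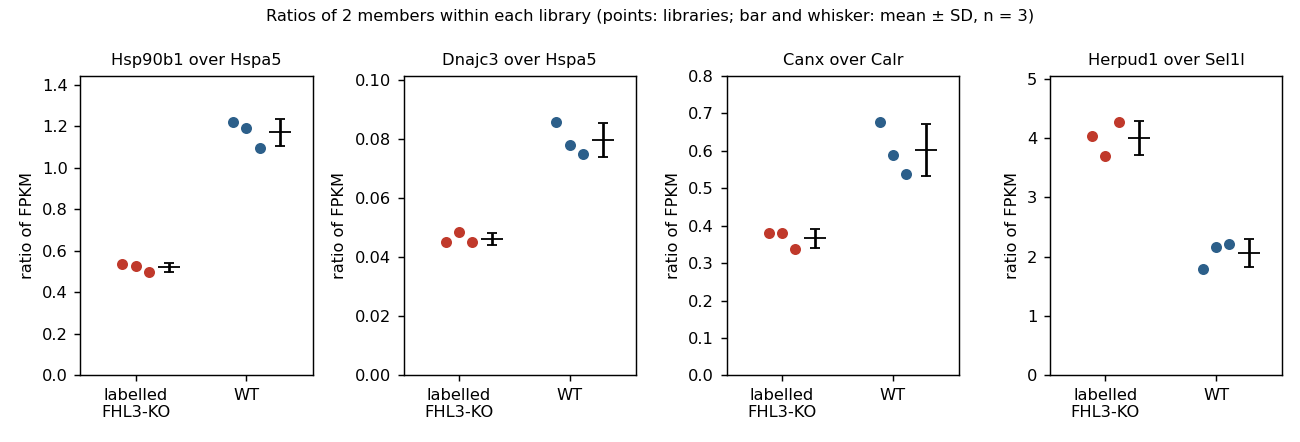
Ratio of the FPKM of 2 members within each library (y axis, from 0), with libraries labelled FHL3-KO left of WT. Points are libraries and the bar and whisker are the mean ± SD (n = 3). Hsp90b1 over Hspa5 averages 0.52 in libraries labelled FHL3-KO and 1.17 in WT.

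None of the 4 disulfide isomerases, which form and reshuffle the disulfide bonds of client proteins, was called by limma, against 40.8% of all tested genes. At an unadjusted p under 0.05, 2 were lower and 0 higher, against 25.8% lower and 24.5% higher of all tested genes. P4hb, the classical protein disulfide isomerase and also a subunit of collagen prolyl hydroxylase, was at 169, 175 and 182 FPKM in the FHL3-KO-labelled libraries, against 195, 209 and 200.3 FPKM in WT (log2 change -0.20, adjusted p = 0.0674). Pdia3 (ERp57), the partner of calnexin and calreticulin, was at 124, 128 and 125 FPKM in the FHL3-KO-labelled libraries, against 151, 145 and 134 FPKM in WT (log2 change -0.19, adjusted p = 0.0884). For these 2 genes the groups did not overlap. Both passed as falls under quantile normalization, with the libraries scaled to 1 sum and after removal of the trend with length and GC content (adjusted p from 0.00381 to 0.0165 for P4hb and from 0.0308 to 0.0456 for Pdia3). Pdia4 (ERp72) was at 51.2, 51.5 and 53.5 FPKM in the FHL3-KO-labelled libraries, against 54.2, 45.95 and 46.1 FPKM in WT (95% confidence interval -0.11 to 0.30 on the log2 scale), and Pdia6, which shuts off activated sensors, at 139, 128 and 152 FPKM in the FHL3-KO-labelled libraries, against 131, 137 and 137 FPKM in WT (-0.16 to 0.24). Their groups overlapped, and the sign of the change turned under quantile normalization, to -0.02 for Pdia4 and -0.14 for Pdia6, and with scaling to the same sum, to -0.01 and -0.07. Pdia6 overlaps exons of Atp6v1c2 on the opposite strand, which averaged 8.13 FPKM in the FHL3-KO-labelled libraries and 0.791 FPKM in WT. The 4 genes together summed to 482 to 512 FPKM in the FHL3-KO-labelled libraries and to 517 to 537 FPKM in WT.

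Of the 6 degradation genes tested Herpud1 rose and Sel1l fell, near the 19.7% of rises and 21.2% of falls among all tested genes. The degradation genes serve ER-associated degradation, which moves misfolded proteins to the cytosol for the proteasome. Herpud1 encodes an ER membrane protein that gathers the ubiquitin ligase complex. It stood at 69.9, 71.2 and 74.5 FPKM in the FHL3-KO-labelled libraries, against 45.3, 47.7 and 44.9 FPKM in WT, with means of 71.9 ± 2.36 FPKM in the FHL3-KO-labelled libraries and 45.98 ± 1.52 FPKM in WT (SD, n = 3 each; log2 change 0.63, SE 0.0705, limma adjusted p = 0.000685). Every library labelled FHL3-KO exceeded every WT library, and the change ran from 0.48 to 0.66 over the alternatives. Sel1l, the scaffold of the ligase Syvn1, was at 17.3, 19.2 and 17.4 FPKM in the FHL3-KO-labelled libraries, against 25.3, 22.1 and 20.2 FPKM in WT (log2 change -0.31, SE 0.102, limma adjusted p = 0.0458), and its call ended without FHL3-KO replicate 1 or 3 or WT replicate 1 or 2 (adjusted p from 0.112 to 0.132) and without a filter (0.0934). After removal of the trend with length and GC content the Sel1l change was -0.18, still called (adjusted p = 0.0409). Syvn1 (HRD1) itself was at 18.4, 19.4 and 18.6 FPKM in the FHL3-KO-labelled libraries, against 17.8, 16.4 and 15.8 FPKM in WT (log2 change 0.16, adjusted p = 0.138), with every library labelled FHL3-KO above WT, and it overlaps Mrpl49 on the opposite strand. The ratio of Herpud1 to Sel1l was 4.03, 3.70 and 4.28 in the FHL3-KO-labelled libraries, against 1.79, 2.16 and 2.22 in WT. On the log2 scale their difference was 0.94, and 0.67 after removal of the trend with length and GC content.

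Edem1, a lectin that passes misfolded glycoproteins to degradation, was at 7.86, 9.25 and 8.19 FPKM in the FHL3-KO-labelled libraries, against 11.9, 10.5 and 9.39 FPKM in WT (log2 change -0.30, adjusted p = 0.0695). It was called without FHL3-KO replicate 2 (adjusted p = 0.0483) and without WT replicate 3 (0.0488), and after removal of the trend with length and GC content its change was -0.15 (adjusted p = 0.117). The channel subunit Derl1 was at 80.1, 76.7 and 75.9 FPKM in the FHL3-KO-labelled libraries, against 69.5, 74.7 and 74.3 FPKM in WT (95% confidence interval -0.08 to 0.26 on the log2 scale). Every library labelled FHL3-KO lay above WT here too, but the sign turned to -0.06 under quantile normalization and to -0.02 with scaling to the same sum. Derl1 shares a stretch of 652 bases, 95.4% identical, with the pseudogene Gm35638, so the Derl1 value is uncertain. Gm35638 averaged 4.4 FPKM in the FHL3-KO-labelled libraries and 3.8 FPKM in WT. The Derl1 relative Derl2 was at 18.4, 18.9 and 15.8 FPKM in the FHL3-KO-labelled libraries, against 18.3, 19.1 and 19.2 FPKM in WT (95% confidence interval -0.30 to 0.12 on the log2 scale). Derl2 shares exon sequence with Mis12 on the opposite strand, and whether the counting used strand was not given in the sources used here, which leaves its value uncertain.

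No translocon gene was called by limma among 6, against 40.8% of all tested genes. At an unadjusted p under 0.05, 0 were lower or higher, against 25.8% lower and 24.5% higher of all tested genes. The translocon threads new proteins into the ER, with Sec61a1 as its pore, Sec61b as a small subunit, Ssr1 and Ssr2 as parts of the associated TRAP complex, Ostc in the glycan-attaching oligosaccharyltransferase and Serp1 as a stress-associated partner. Sec61a1 was at 57.1, 58.2 and 58.1 FPKM in the FHL3-KO-labelled libraries, against 50.1, 57.2 and 58.01 FPKM in WT (95% confidence interval -0.12 to 0.26 on the log2 scale), the narrowest spread of the group in the FHL3-KO-labelled libraries. Ssr1 was at 18.5, 20.1 and 16.9 FPKM in the FHL3-KO-labelled libraries, against 17.1, 15.7 and 13.9 FPKM in WT (log2 change 0.24, adjusted p = 0.111), and after removal of the trend with length and GC content the change was 0.56 and passed (adjusted p = 0.000618), while with scaling to the same sum it was 0.13. Serp1 was at 25.2, 30.4 and 24.7 FPKM in the FHL3-KO-labelled libraries, against 31.8, 30.4 and 31.1 FPKM in WT (log2 change -0.21, adjusted p = 0.113) and passed only without FHL3-KO replicate 2 (adjusted p = 0.0213), and its sign turned to 0.09 after removal of the trend with length and GC content. Ssr2 ran from 75.8 to 128 FPKM in the FHL3-KO-labelled libraries and from 83.8 to 106 FPKM in WT, Sec61b from 34.2 to 48.98 FPKM in the FHL3-KO-labelled libraries and from 35.1 to 53.1 FPKM in WT. Ostc ran from 64.3 to 75.2 FPKM in the FHL3-KO-labelled libraries and from 64.5 to 82.98 FPKM in WT. The 95% confidence intervals on the log2 scale were -0.38 to 0.48 for Ssr2, -0.53 to 0.29 for Sec61b and -0.31 to 0.21 for Ostc. Ssr2 and Sec61b share near-identical stretches with Rtraf and Gm10320, and Serp1 overlaps Eif2a on the opposite strand, so these values are uncertain.

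Part of the spread within groups followed transcript length. Across the 31 tested members, the deviation of a library from its group mean correlated with log2 exon length at r = 0.61 for FHL3-KO replicate 2 and 0.63 for WT replicate 1, and at -0.62 for FHL3-KO replicate 3 and -0.68 for WT replicate 3. These values describe genes within a library and are no test. For the change between the groups the same r was -0.19. This r covers exon length alone, and none was computed for GC content. WT replicate 1, which held the liver transcripts, was the highest library for Hsp90b1, Dnajc3, Canx, Hspa5, Atf6 and Eif2ak3. Without it the log2 changes were -1.38 for Hsp90b1, -0.91 for Dnajc3 and -0.63 for Canx, all called (adjusted p of 0.000529, 0.00204 and 0.00698), and 5 members fell and 1 rose. In that fit 3984 genes were called in all, against 5112 with all libraries.

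The shares of genes that rose and fell differed between chromosomes. On chromosome 8, 51.5% of 676 tested genes rose and 7.4% fell, with a median log2 change of 0.37, and both Herpud1 and Calr lie there. The Herpud1 change of 0.63 was thus above the median of its chromosome and the Calr change of 0.02 below it. On chromosome 10, which holds Hsp90b1, 10.5% of 621 tested genes rose and 33.8% fell, with a median of -0.18, against -1.48 for Hsp90b1. The medians were 0.055 on chromosome 14, where Dnajc3 lies, and 0.016 on chromosome 11, where Canx and Xbp1 lie. The part of the chromosome in these results was not tested.

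**Figure D4:**
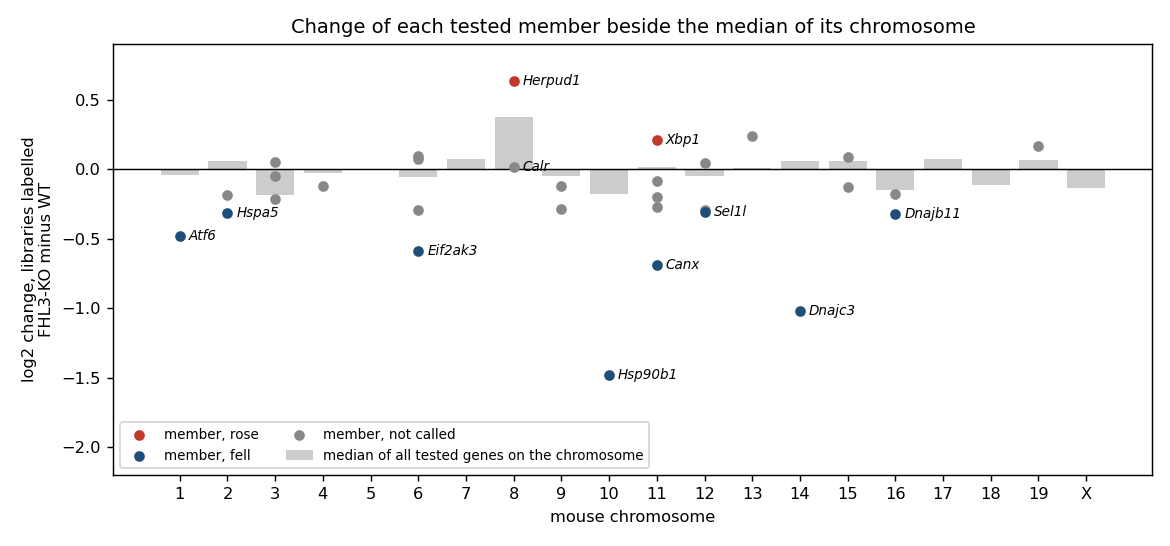
Log2 change of each of the 31 tested members (points, y axis) by mouse chromosome (x axis), over the median log2 change of all tested genes on that chromosome (grey bars). The chromosome 8 median is 0.37, with Herpud1 above it and Calr below it, and the falls of Hsp90b1, Dnajc3 and Canx lie far below the medians of chromosomes 10, 14 and 11.

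Other genes of the pathway were read from lists chosen with earlier results of these data known. Together they held 152 tested genes, of which 29 rose and 35 fell (42.1% called, against 40.8% of all tested genes), with a median log2 change of -0.02. A list named for the branch from PERK to the transcription factor ATF4 held 11 tested genes. In limma 8 of these rose and 0 fell (1 was lower at an unadjusted p under 0.05), with a median log2 change of 0.86. Whether PERK drove these changes was not tested, and its gene Eif2ak3 had a log2 change of -0.59. Atf4 was at 262, 254 and 245 FPKM in the FHL3-KO-labelled libraries, against 141, 135 and 142 FPKM in WT (limma adjusted p = 0.000245). Its targets Chac1, a glutathione-degrading enzyme, and Trib3, a pseudokinase, averaged 26.6 ± 0.927 FPKM in the FHL3-KO-labelled libraries and 6.53 ± 1.57 FPKM in WT, and 10.8 ± 0.876 FPKM in the FHL3-KO-labelled libraries and 2.30 ± 0.457 FPKM in WT (SD, n = 3 each). The related factor Atf3 averaged 22.1 ± 1.58 FPKM in the FHL3-KO-labelled libraries and 7.21 ± 0.53 FPKM in WT. Limma adjusted p values of these 3 were 0.000167, 0.00011 and 7.37e-05. Ddit3, the CHOP gene, was at 22.8, 15.9 and 20.2 FPKM in the FHL3-KO-labelled libraries, against 24.5, 24.03 and 26.05 FPKM in WT and was not called (adjusted p = 0.0689). It passed as a fall with scaling to the same sum (0.0284) and without FHL3-KO replicate 1 (0.0401), and its log2 change was -0.34, or -0.20 without FHL3-KO replicate 2.

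The counts in the next lists stand beside 19.7% rises and 21.2% falls among all tested genes. Of 12 other ER stress transducers 4 rose and 1 fell. Creb3l1, an ATF6-like factor of secretory cells, averaged 34.03 ± 2.34 FPKM in the FHL3-KO-labelled libraries and 18.5 ± 0.68 FPKM in WT (SD, n = 3 each; limma adjusted p = 0.000377), Traf2, an IRE1 adaptor, had a log2 change of 0.55, and Creb3l2 one of -0.52. Of 14 other ER chaperones 2 rose and 4 fell, with the HSP70 relative Hspa13 at -0.87, Dnajb14 at -0.67 and the prolyl isomerase Fkbp11 at 0.37. Of 15 other redox enzymes 0 rose and 5 fell (0 higher and 5 lower at an unadjusted p under 0.05), led by Pdia5, Ero1b, which reoxidizes the isomerases, and Tmx3, at -0.58, -0.64 and -0.71. Of 13 genes of glycan trimming 1 rose and 5 fell, with Edem3 at -0.94, the lectin Os9 at -0.62 and the cargo receptor Lman2 at 0.40. These 12 genes were all called, with limma adjusted p of 0.0165 or lower. With no filter the calls of Creb3l2 and Tmx3 ended (0.0521 and 0.0668). The Tmx3, Dnajb14 and Fkbp11 calls ended after removal of the trend with length and GC content (log2 changes of -0.18, -0.18 and 0.20), where Hspa13 was at -0.43 and Ero1b at -0.36, still called, and the Fkbp11 call also with scaling to the same sum. Without FHL3-KO replicate 1 the calls of Creb3l2, Tmx3 and Fkbp11 ended (adjusted p of 0.0591, 0.0602 and 0.0572), without WT replicate 1 that of Tmx3 (0.0532), and without WT replicate 2 those of Tmx3 and Fkbp11 (0.0506 and 0.0611).

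Of 28 other genes of translocation, signal cleavage and glycan attachment 6 rose and 7 fell. For this list and those below, the shares among all tested genes were 19.7% rises and 21.2% falls. The translocon partners Sec62 and Sec63, which help import proteins after their translation, fell, to 14.998 ± 1.45 FPKM in the FHL3-KO-labelled libraries and 38.8 ± 4.34 FPKM in WT for Sec62 and 10.2 ± 1.71 FPKM in the FHL3-KO-labelled libraries and 24.6 ± 3.82 FPKM in WT for Sec63 (SD, n = 3 each; limma adjusted p = 0.00021 and 0.00108). Srp19 of the signal recognition particle had a log2 change of -0.74, or -0.48 after removal of the trend with length and GC content. Of 17 other degradation genes 2 rose and 2 fell, with Ubxn4 at -0.97, Ufd1 at -0.59 and Ubac2 at 0.54. Of 11 collagen-modifying genes 2 rose and 2 fell, among them the lysyl hydroxylases Plod2 and Plod1 at -1.12 and -0.49 and P3h4 at 0.32, and of 14 genes of ER exit 1 rose and 2 fell (Preb at 0.41, Mia3 at -0.60 and Sec23a at -0.43). The P3h4 and Sec23a calls ended after removal of the trend with length and GC content, and the P3h4 and Preb calls with scaling to the same sum. The P3h4 call also ended under quantile normalization, and the Sec23a call with no filter. Without FHL3-KO replicate 1 the Preb call ended (adjusted p = 0.0627), without WT replicate 2 the P3h4 call (0.0617), and the Sec23a call ended without FHL3-KO replicate 1 or 3 or WT replicate 1 or 2 (0.0820 to 0.0923).

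Chaperones outside the ER were called in both directions, 7 of 17 falling and 3 rising, against 21.2% falling and 19.7% rising of all tested genes. Hsp90aa1, the cytosolic counterpart of Hsp90b1, was at 89.9, 96.8 and 73.2 FPKM in the FHL3-KO-labelled libraries, against 341, 293 and 259 FPKM in WT (log2 change -1.77, SE 0.138, limma adjusted p = 0.000175), beside -1.48 for its ER relative. The HSP40 Dnaja1 and the inducible HSP70 Hspa1a had log2 changes of -0.75 and -0.70 (limma adjusted p = 0.000946 and 0.00246). After removal of the trend with length and GC content the Dnaja1 change was -0.30 (adjusted p = 0.0458). For all 3 genes the FHL3-KO-labelled libraries lay below WT without overlap.

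**Figure D5:**
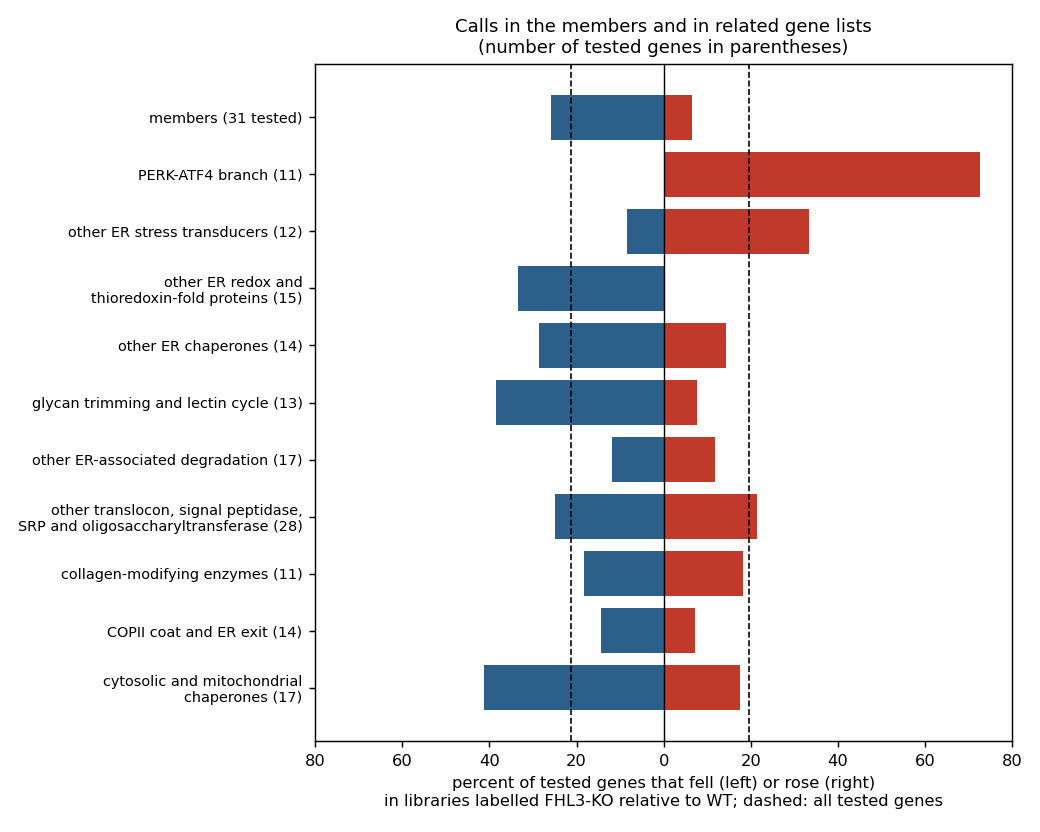
Percent of tested genes that fell (bars to the left) or rose (bars to the right) in libraries labelled FHL3-KO relative to WT, for the members and 10 related lists, with the number of tested genes in parentheses. Dashed lines mark the 21.2% of falls and 19.7% of rises among all 12528 tested genes. The PERK-ATF4 list has rises and no fall, whereas 25.8% of the members fell and 6.45% rose.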

How the data were processed

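RNA was sequenced from 3 libraries labelled FHL3-KO and 3 WT libraries. The deposited table gives FPKM per gene in 55420 rows. The submitters' processing notes name Trim Galore 0.6.6, HISAT2 2.2.1, featureCounts 2.0.1, DESeq2 1.28.1 and the build mm10, and how the authors scaled the FPKM was not given in the sources used here. Summed FPKM ranged from 424987 to 494176 per library. Read depth was only estimated, relative to the deepest library (0.859 to 1), so no counting interval is given. The estimate took the most frequent FPKM value among short genes, held by 14 to 42 genes per library, as 1 step of counting. The 12528 genes averaging 1 FPKM or more in either group were tested as log2(FPKM + 1) with limma 3.58.1 in R 4.3.3 (empirical Bayes with trend, two-sided, Benjamini-Hochberg over all tested genes), and fold changes on that scale understate the change of low genes. The code was tested on simulated data. Exon length, GC content and coordinates come from the GENCODE annotation of GRCm38, and promoters from RefSeq. The members and lists were chosen with earlier results of these data known. All members, Fhl3, Atf4, Ddit3 and the 3 genes of each other list with the smallest limma p are named. The 14 alternatives were another pseudocount (0.1), no filter, a filter at a mean of 5 FPKM, median-of-ratios scaling, scaling to the same sum, quantile normalization, a replicate block, removal of the trend with length and GC content, and leaving out each library.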

Additional observations from a re-analysis of the deposited data

How the results depend on the processing

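The fit reported above called 5112 genes and, among the members, 2 rises, 8 falls and a median log2 change of -0.177. The members' median stayed between -0.279 and -0.134 in all 14 alternatives. With no filter 5 members fell and 2 rose. Under quantile normalization 10 fell and 1 rose, with scaling to the same sum 10 fell and 1 rose, with median-of-ratios scaling 8 fell and 1 rose, and after removal of the trend with length and GC content 11 fell and 2 rose. The other pseudocount and the stricter filter gave 8 falls and 2 rises each. All genes called numbered 4132 with no filter, 4964 under quantile normalization and 4649 with scaling to the same sum. Their number was 5217 with median-of-ratios scaling and 5366 after removal of the trend with length and GC content. It was 5106 with the other pseudocount and 3937 with the stricter filter. Leaving out 1 library gave 3272 to 5273 genes called, 1 to 2 members that rose and 3 to 11 that fell, with the fewest genes without WT replicate 2. With the replicate block 4759 genes were called, 1 member rose and 7 fell, the Xbp1 and Sel1l calls ending. The deviations of same-numbered libraries correlated at -0.127, -0.0626 and 0.316, and those of differently numbered libraries at -0.376 to 0.368. With 3 libraries a group these values cannot decide whether same-numbered libraries were paired.

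Signs turned only for members that were not called above. With quantile normalization the log2 changes were -0.17 for Calr, -0.02 for Pdia4, -0.14 for Pdia6, -0.06 for Derl1, -0.05 for Sec61a1 and -0.11 for Ssr2. With scaling to the same sum they were -0.09 for Calr, -0.01 for Pdia4, -0.07 for Pdia6, -0.02 for Derl1, -0.04 for Sec61a1 and -0.05 for Ssr2. After removal of the trend with length and GC content they were -0.10 for Calr, -0.03 for Pdia6, -0.0051 for Derl1, 0.28 for Derl2, -0.12 for Ssr2 and 0.09 for Serp1. Leaving out FHL3-KO replicate 2 gave -0.03 for Calr and 0.01 for Ostc, and leaving out FHL3-KO replicate 3 gave -0.02 for Pdia6 and -0.14 for Ssr2. Without WT replicate 1 the values were -0.0064 for Calr and -0.03 for Ssr2, and without WT replicate 3 they were 0.01 for Sec61b and 0.04 for Ostc. Over the 6 fits that leave out 1 library the range was -0.03 to 0.07 for Calr, -0.02 to 0.10 for Pdia6, -0.14 to 0.23 for Ssr2, -0.28 to 0.01 for Sec61b and -0.14 to 0.04 for Ostc. The cause was not tested.

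Of 434 member values under alternatives 365 kept their direction and side of the threshold, 30 lost the call and 13 gained one. With 3 libraries a group and no counts, changes as small as those of Xbp1 and Sel1l could not be told from the spread between libraries without FHL3-KO replicate 1 or 3 or WT replicate 1 or 2.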
